A study of Drosophila melanogaster with 12 samples.

Results

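The genes CNBP, Ref1, pAbp, B52 and Rm62 encode RNA-binding proteins, and their transcripts are described here across 12 arrays of fly heads. They were selected on their measured values over these same arrays in an earlier look at the data, and all probe sets that the probe annotation assigned to 1 of these 5 symbols were taken. This gave 8 probe sets of 5 genes, of 13966 probe sets and 10844 named genes in all. CNBP had 3 probe sets, pAbp had 2, and Ref1, B52 and Rm62 had 1 each. No limit on low values was set, so all 8 were kept.

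All flies were adult Drosophila melanogaster of the laboratory strain y w, mutant for yellow (pale body) and white (unpigmented eyes), and no other genotype was compared. They had lived through 3 days of 12 h light and 12 h darkness. Heads were then taken every 4 h, at hours 2, 6, 10, 14, 18 and 22 after lights-on, during 1 more cycle of light and darkness (LD) and, counted from subjective lights-on, during the next day in constant darkness (DD). Each time was 1 Affymetrix array made from pooled heads, about 100 to 200 by the submitters' account, so each regime had 6 arrays, and an array is named below by regime and hour, as in LD 2. Sex and age were not given, heads were separated from frozen flies on sieves, and darkness always came on the later day, so light regime and order of days cannot be told apart. Nothing said that the pools had separate origins, so the p-values reflect only how far these arrays scatter, and their number limits the precision. That scatter may be technical. Where arrays of several hours are grouped below, it and the SDs also hold change between hours, so the arrays are not repeats of 1 condition.

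A messenger RNA is bound by proteins from its synthesis to its decay. SR proteins steer splicing, adaptors of the TREX complex hand the finished message to the export receptor, poly(A)-binding proteins hold the tail in the cytoplasm and aid translation, and DEAD-box helicases remodel RNA and its protein coat. Many such proteins are abundant in neurons, where splicing and local translation are heavily regulated.

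The deposited log2 values had medians between 5.37 and 5.40 per array, and the correlation of 2 arrays across probe sets lay between 0.973 and 0.995. In 4 arrays, LD 2, DD 14, DD 18 and DD 22, the signal at the 5′ end of control transcripts was low relative to that at the 3′ end, a difference that falls as labelled RNA becomes less complete. The mean 5′ minus 3′ signal of 3 transcripts (actin, GAPDH, eIF-4a) lay between -2.51 and -1.89 log2 in these 4 arrays and between -1.76 and -1.52 in the other 8. For actin the ranges were -2.33 to -1.96 and -1.78 to -1.38, and for GAPDH -2.71 to -2.54 and -2.08 to -1.27, so neither overlapped. For eIF-4a they were -2.70 to -1.18 and -1.61 to -1.36, and overlapped. DD 18 and DD 22 were low for eIF-4a (-2.70 and -2.47), but LD 2 and DD 14 (-1.29 and -1.18) were the 2 highest of all 12 arrays.

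**Figure D1:**
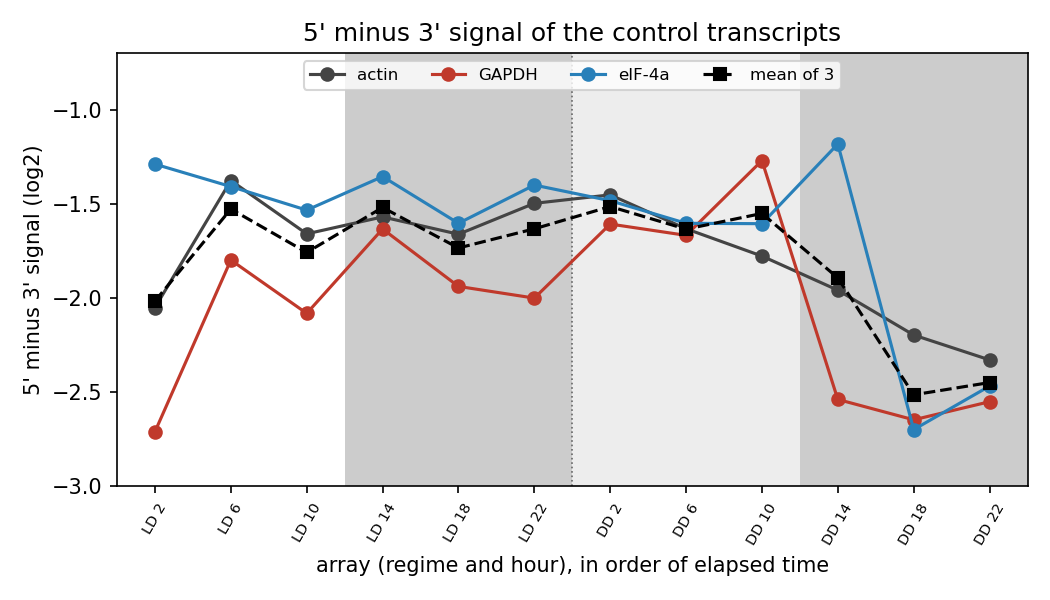
Signal of the 5′ probe set minus that of the 3′ probe set (log2, vertical axis) of 3 control transcripts (actin, GAPDH, eIF-4a) and their mean, for each array in order of elapsed time (horizontal axis, regime and hour), with dark shading for night and light shading for subjective day. The mean lies between -2.51 and -1.89 in LD 2, DD 14, DD 18 and DD 22 and between -1.76 and -1.52 in the other 8 arrays.

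The 5 genes shared 1 profile on their brightest probe sets. Each was high at LD 2, lower through the rest of the light/dark day and through the subjective day, and high again in the 3 arrays of the subjective night. From the night of LD to the subjective night of DD the mean level was 2.90-fold higher for CNBP, 2.40-fold for Ref1, 2.38-fold for Rm62, 2.20-fold for B52 and 1.86-fold for pAbp. Since the genes were selected on these values, their levels by time are a description. The arrays that were high are also the 4 of low 5′ minus 3′ signal, and the part of that signal in the profile was not tested beyond the covariate fits given below. In bulk samples, moreover, fewer cells of a type and less RNA per cell cannot be told apart.

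**Figure D2:**
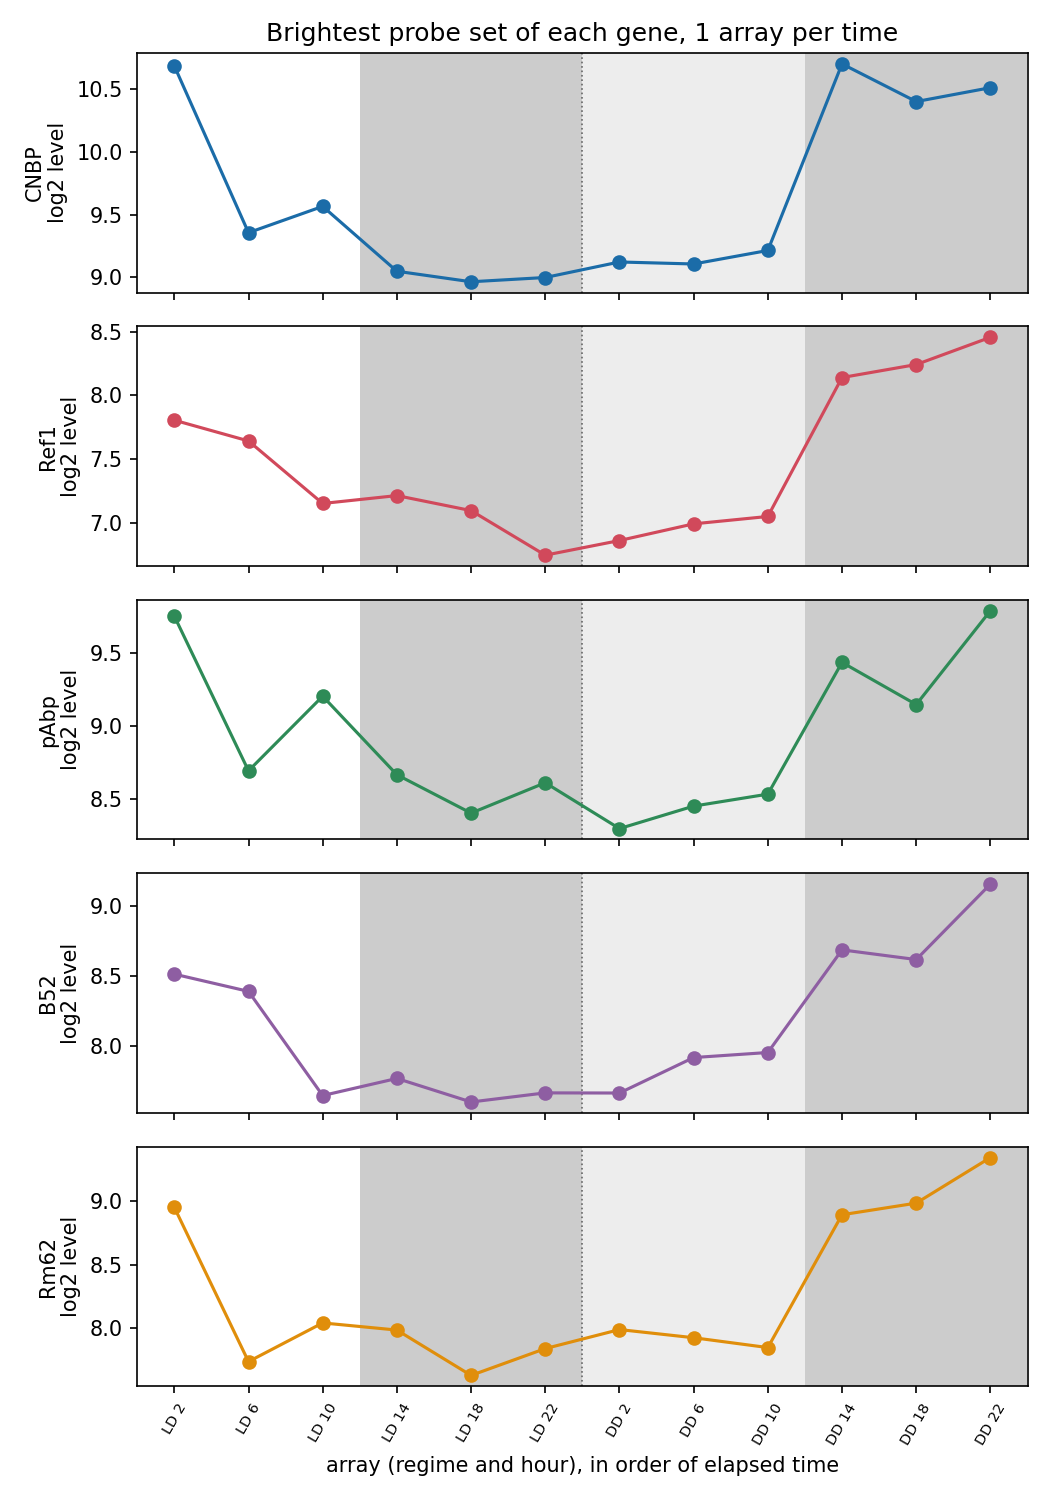
Log2 level (vertical axes) of the brightest probe set of each of the 5 genes on each array in order of elapsed time (horizontal axis, regime and hour), with dark shading for night, light shading for subjective day and a dotted line between LD and DD. The levels at LD 2 and at DD 14, DD 18 and DD 22 stand above most others; for CNBP these 4 lie between 10.40 and 10.70 and the other 8 between 8.96 and 9.57.

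CNBP (NCBI Gene 37646) encodes a zinc-finger protein that binds single-stranded nucleic acids and is known to promote translation. Its brightest probe set, 142507_s_at, read 10.69, 9.36, 9.57, 9.05, 8.96 and 8.998 log2 at LD 2 to LD 22, and 9.12, 9.11, 9.21, 10.70, 10.40 and 10.51 at DD 2 to DD 22. LD 2 and the 3 DD night arrays were thus at least 0.84 log2 above every other array, and the other 8 lay between 8.96 and 9.57. The means were 9.87 ± 0.72 by day and 9.003 ± 0.042 by night in LD, and 9.15 ± 0.06 by subjective day and 10.54 ± 0.15 by subjective night in DD (SD, n = 3 each). The fall from LD 2 to LD 6 was 2.52-fold, larger than any later step down. The suffix _s_at marks probes that may match more than 1 transcript, so signal from a related transcript cannot be told apart here.

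The dimmer probe sets of CNBP went separate ways. Probe set 141938_at had the same 4 arrays on top, with 7.95 at LD 2 and 8.04, 7.81 and 8.14 at DD 14, DD 18 and DD 22, against 7.24 to 7.56 in the other 8, a smaller contrast than on 142507_s_at. Probe set 142508_at did not share the profile: it lay between 7.27 and 7.58 in the 4 arrays and between 6.93 and 7.67 in the other 8, with its highest value at DD 10. Averaged over its 3 probe sets, the light-dependent difference of CNBP defined below was 0.96 log2 rather than 2.26.

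Ref1 (NCBI Gene 44029) encodes the fly ALYREF protein, an adaptor of the TREX complex that couples a processed mRNA to the export receptor. It read 7.80, 7.64, 7.15, 7.21, 7.09 and 6.74 log2 in LD and 6.86, 6.99, 7.05, 8.14, 8.24 and 8.46 in DD. Ref1 ran down from LD 2 to its lowest value at LD 22, and its 3 subjective night values were the highest of all 12 arrays. The means were 7.53 ± 0.34 by day and 7.02 ± 0.24 by night in LD, and 6.97 ± 0.10 by subjective day and 8.28 ± 0.16 by subjective night in DD (SD, n = 3 each). LD 6 was only 0.16 log2 below LD 2, so the 4 arrays and the other 8 were separated by a narrow gap.

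pAbp (NCBI Gene 37070) encodes the cytoplasmic poly(A)-binding protein, which coats the tails of mRNAs and promotes their translation and stability. Its brightest probe set, 154253_at, read 9.75, 8.69, 9.20, 8.67, 8.40 and 8.61 log2 in LD and 8.30, 8.45, 8.53, 9.44, 9.15 and 9.79 in DD. Here the 2 sets of arrays overlapped, since LD 10 was slightly higher than DD 18. The means were 9.22 ± 0.53 by day and 8.56 ± 0.14 by night in LD, and 8.43 ± 0.12 by subjective day and 9.46 ± 0.32 by subjective night in DD (SD, n = 3 each).

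The other probe set of pAbp, 151215_at, did not share this profile. It read 8.89, 9.85, 7.83, 7.73, 8.62 and 8.88 log2 in LD and 8.21, 8.68, 8.54, 8.34, 8.89 and 8.69 in DD. Its highest value was at LD 6 and its lowest at LD 14, and its range of 2.12 log2 was wider than that of 99.2% of all probe sets. The correlation of both pAbp probe sets over the 12 arrays was 0.03, given as a description. With the mean of both probe sets the light-dependent difference of pAbp was 1.15 log2 rather than 1.69.

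**Figure D3:**
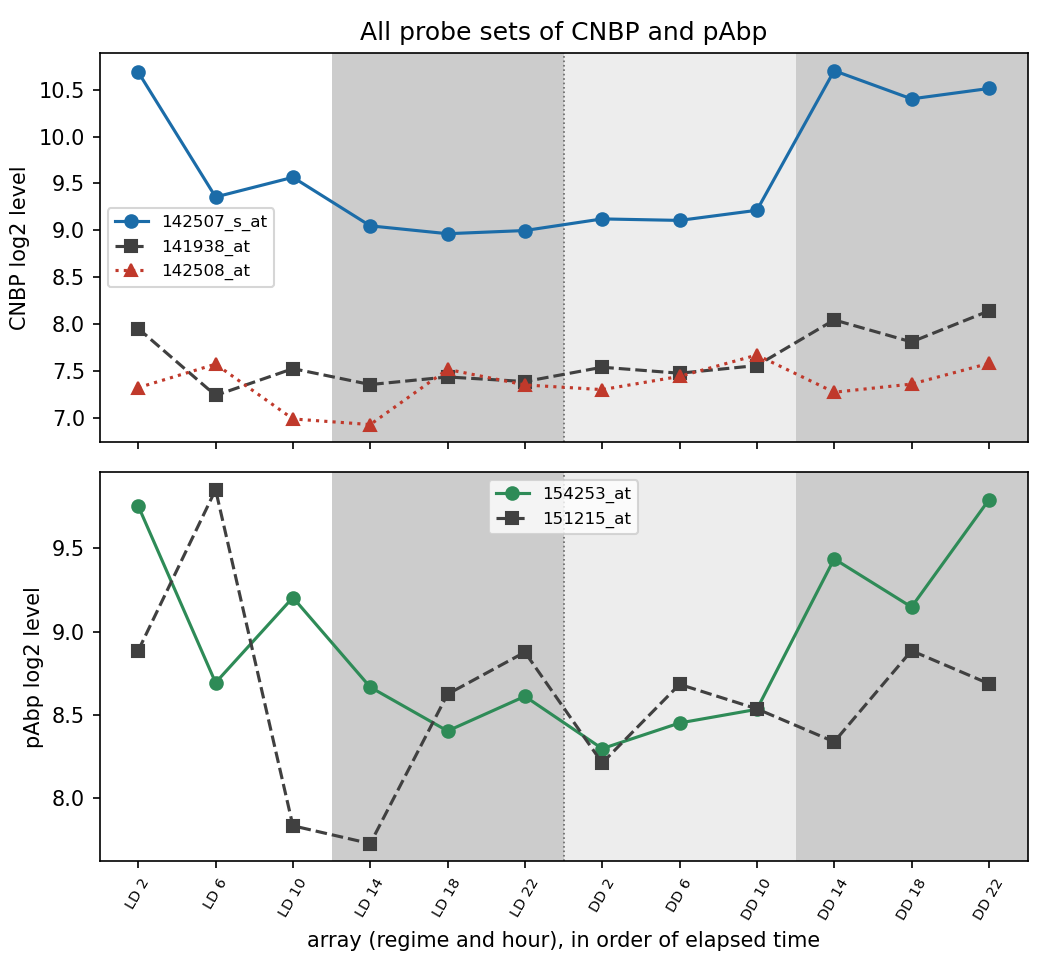
Log2 level (vertical axes) of the 3 probe sets of CNBP (upper panel) and the 2 of pAbp (lower panel) on each array in order of elapsed time (horizontal axis, regime and hour), with shading as for the plot of the 5 genes. CNBP 142507_s_at and 141938_at and pAbp 154253_at are higher in the DD night arrays, while CNBP 142508_at stays between 6.93 and 7.67 and pAbp 151215_at is highest at LD 6, at 9.85.

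B52 (NCBI Gene 41670) encodes an SR protein that regulates splice site choice. It read 8.51, 8.39, 7.65, 7.77, 7.60 and 7.67 log2 in LD and 7.67, 7.92, 7.95, 8.69, 8.62 and 9.16 in DD. Its 2 early LD values were both high, and DD 22 was the highest of all 12 arrays. The means were 8.18 ± 0.47 by day and 7.68 ± 0.08 by night in LD, and 7.85 ± 0.16 by subjective day and 8.82 ± 0.29 by subjective night in DD (SD, n = 3 each).

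Rm62 (NCBI Gene 40739) encodes a DEAD-box RNA helicase with roles in transcription, splicing and RNA silencing. It read 8.95, 7.74, 8.04, 7.99, 7.63 and 7.84 log2 in LD and 7.99, 7.93, 7.85, 8.89, 8.98 and 9.34 in DD. The 4 high arrays stood 0.85 log2 clear of the other 8, which kept within 7.63 to 8.04. The means were 8.24 ± 0.63 by day and 7.82 ± 0.18 by night in LD, and 7.92 ± 0.07 by subjective day and 9.07 ± 0.24 by subjective night in DD (SD, n = 3 each).

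Set beside the control signal, the 4 arrays of lowest mean 5′ minus 3′ signal were all above the other 8 for 5 of the 8 probe sets, those of Ref1, B52 and Rm62 and CNBP 142507_s_at and 141938_at. Over all probe sets this order held for 442, or 3.16%. The opposite order, with the 4 arrays all below, held for 639, or 4.58%, which included no probe set of the 5 genes. The 5 genes were selected on values of these arrays, so their count is a description and nothing is read from it. The cut at 4 arrays was set by rank, with DD 14 at -1.89 and the next, LD 10, at -1.76. Among the 4 arrays the order differed by gene. CNBP read 10.69 at LD 2 and 10.70 at DD 14, where that signal was -2.02 and -1.89, and 10.40 and 10.51 at DD 18 and DD 22, where it was -2.51 and -2.45. For Ref1 and Rm62 the 2 arrays of lowest mean signal, DD 18 and DD 22, had the 2 highest values (8.24 and 8.46 for Ref1, 8.98 and 9.34 for Rm62). For pAbp and B52 DD 22 was the highest, and DD 18 was below DD 14 for both. LD 2 and DD 14, the arrays with the highest eIF-4a signal, were high for all 5 genes. The gap between both sets of arrays was widest for Rm62 (0.85 log2) and CNBP (0.84), narrow for Ref1 (0.16) and B52 (0.12), and pAbp had none (-0.06).

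**Figure D4:**
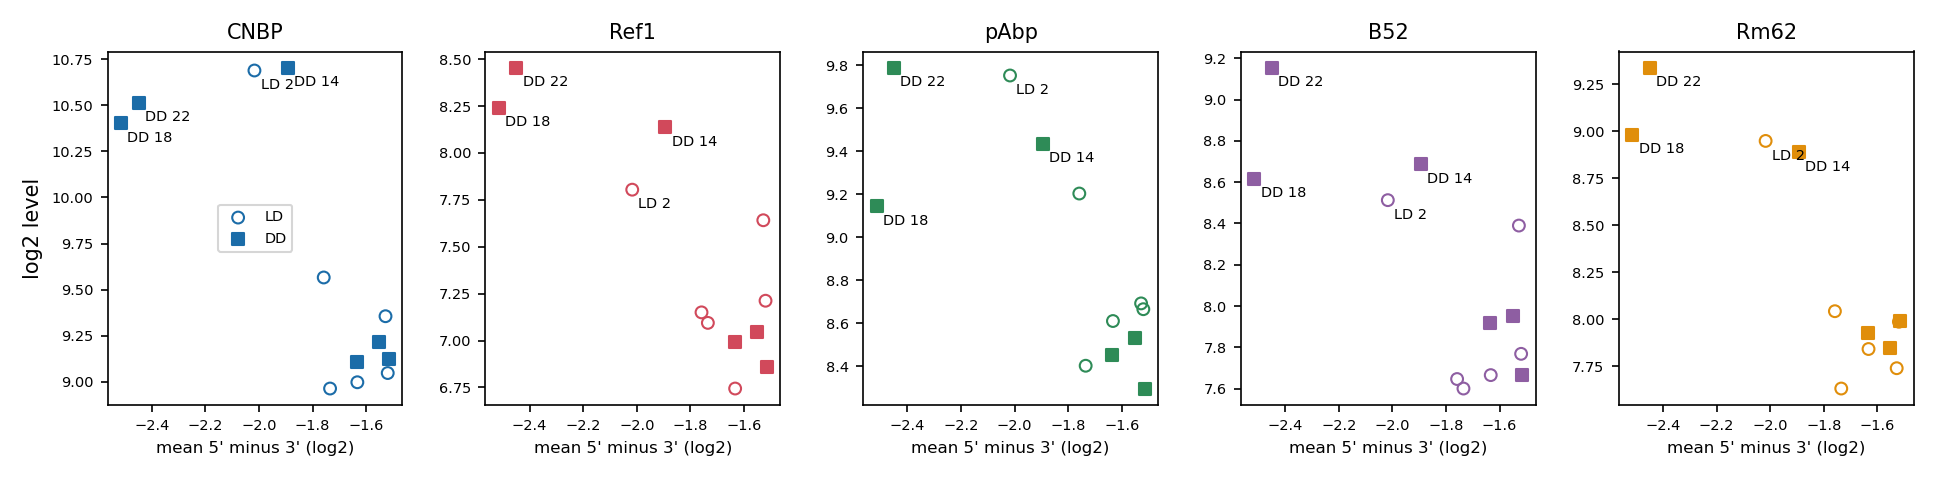
Log2 level of the brightest probe set of each gene (vertical axes) against the mean 5′ minus 3′ signal of the 3 control transcripts (log2, horizontal axes), 1 point per array, with open circles for LD and filled squares for DD. The 4 named arrays lie to the left, between -2.51 and -1.89, and are above the other 8 for every gene but pAbp, where LD 10 (9.20) is above DD 18 (9.15).

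Over the 8 remaining arrays the pairwise correlations of the 5 brightest probe sets ran from -0.27 to 0.79 with a median of 0.36 over 10 pairs, given as a description, since the probe sets share the same arrays. They were highest for CNBP with pAbp (0.79) and B52 with Ref1 (0.75), and below 0 for Rm62 with B52 and with Ref1 (both -0.27). The transcripts also differed after LD 2. Ref1 and B52 were still high at LD 6 (7.64 and 8.39), while CNBP, Rm62 and pAbp had dropped by 1.33, 1.21 and 1.06 log2. From LD 6 to LD 10 pAbp, Rm62 and CNBP rose by 0.51, 0.30 and 0.21 log2, and B52 and Ref1 fell by 0.74 and 0.49. Each hour was 1 array, so a difference in timing between the genes was not tested. In their range over all 12 arrays, 1.49 to 1.74 log2, the 5 brightest probe sets exceeded 96.8% to 98.4% of all probe sets.

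The light-dependent difference asks whether day minus night differed between the lit and the dark day. It was the mean of hours 2, 6 and 10 minus that of hours 14, 18 and 22 in LD, less the same quantity in DD, from a limma fit to 4 groups of 3 arrays. It was 2.26 ± 0.36 log2 (SE) for CNBP, 1.83 ± 0.23 for Ref1, 1.69 ± 0.32 for pAbp, 1.57 ± 0.35 for Rm62 and 1.48 ± 0.29 for B52. In LD the 5 genes were higher by day, by 0.87 ± 0.26 (CNBP), 0.66 ± 0.23 (pAbp), 0.52 ± 0.17 (Ref1), 0.50 ± 0.21 (B52) and 0.42 ± 0.24 (Rm62). Without LD 2 these values were 0.46, 0.39, 0.38, 0.34 and 0.07, while that of Rm62 was 0.68 without LD 6 and that of B52 was 0.77 without LD 10. In DD they were lower by subjective day, by differences of -1.39 ± 0.26 (CNBP), -1.31 ± 0.17 (Ref1), -1.15 ± 0.24 (Rm62), -1.03 ± 0.23 (pAbp) and -0.97 ± 0.21 (B52). With the mean 5′ minus 3′ signal in the fit these DD differences were -0.98, -1.10, -0.49, -0.60 and -0.80, and with that of actin and GAPDH -0.29, -1.07, -0.07, -0.16 and -0.70, in the same order. The dimmer probe sets gave 0.65 ± 0.21 (CNBP 141938_at), 0.61 ± 0.60 (pAbp 151215_at) and -0.04 ± 0.25 (CNBP 142508_at).

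Of all 13966 probe sets 299, or 2.14%, passed an adjusted p of 0.05 for the light-dependent difference (limma, Benjamini-Hochberg), among them the brightest probe set of each of the 5 genes. For day minus night in LD 1 probe set, or 0.00716%, passed and none was of these genes. For day minus night in DD 131, or 0.938%, passed, with 2 of these genes, CNBP and Ref1, among them. As the genes were selected on these values, nothing is read from their calls. The calls also changed when single arrays were left out, while the light-dependent differences stayed above 0. These ran from 1.85 to 2.52 log2 for CNBP, 1.69 to 2.02 for Ref1 and 1.42 to 1.95 for pAbp. For B52 they ran from 1.31 to 1.75 and for Rm62 from 1.22 to 1.82. Without DD 2, DD 6 or DD 10 none of the 5 passed for the light-dependent difference, 1 passed without LD 14, LD 18, LD 22 or DD 22, and 4 without LD 2 or DD 18. With hour of day as a block CNBP and Ref1 passed and Rm62, B52 and pAbp did not, and with averaged probe sets pAbp did not. The number of all probe sets that passed was 157 without LD 2, 1349 without LD 6, 29 without LD 14, 12 without LD 18, 15 without LD 22, 1 without DD 2 and without DD 6, 2 without DD 10 and 19 without DD 22. For day minus night in DD none of the 5 passed without LD 18, LD 22, DD 2, DD 6, DD 10, DD 18 or DD 22, and all 5 passed without LD 2 or without LD 6. The number of all probe sets that passed there was 634 without LD 2, 716 without LD 6, 214 without LD 10, 452 without DD 14, 2 without DD 10 and 0 without LD 18, LD 22, DD 2, DD 6, DD 18 or DD 22, where limma gave 1806 to 2415 with an unadjusted p under 0.05. For day minus night in LD it was 69 without LD 6. Under either covariate no probe set passed for day minus night in DD, where limma gave 482 with the mean signal and 396 with that of actin and GAPDH at an unadjusted p under 0.05.

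When the mean 5′ minus 3′ signal entered the fit, the light-dependent differences were 1.77 log2 for CNBP, 1.58 for Ref1, 1.27 for B52, 1.17 for pAbp and 0.78 for Rm62. With the signal of actin and GAPDH alone, an alternative chosen after the data were seen, they were 0.84, 1.52, 1.12, 0.56 and 0.19 in the same order. All stayed above 0, and those of Rm62, CNBP and pAbp moved by more than 1.5 times under the second covariate, Rm62 also under the first. No probe set of any gene passed under either covariate, where limma gave 958 and 571 with an unadjusted p under 0.05. The covariate and the subjective night of DD largely coincide, so their parts in the difference cannot be told apart with 12 arrays.

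No daily rhythm was called in the 5 genes. The fitted amplitudes of a 24 h curve, from mean to peak, were 0.32 ± 0.20 log2 (SE) for Rm62, 0.26 ± 0.21 for Ref1, 0.24 ± 0.27 for CNBP, 0.17 ± 0.19 for B52 and 0.15 ± 0.21 for pAbp, with adjusted p between 0.967 and 0.986 (limma F-test). Over all probe sets 3, or 0.0215%, passed, and none of the 8 probe sets of these genes did, where limma gave 654 probe sets with an unadjusted p under 0.05. The high hours differed between the days, hour 2 in LD and hours 14 to 22 in DD, and 1 curve was fitted to both days.

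The mean level of the 5 genes in DD minus that in LD did not pass the test either. The means over 6 arrays were 9.84 ± 0.77 in DD and 9.44 ± 0.66 in LD for CNBP, 8.50 ± 0.65 and 8.03 ± 0.47 for Rm62, 8.33 ± 0.57 and 7.93 ± 0.41 for B52, 7.62 ± 0.73 and 7.27 ± 0.39 for Ref1, and 8.94 ± 0.60 and 8.89 ± 0.50 for pAbp (SD, n = 6 each). The differences were 0.46 ± 0.28 log2 for Rm62, 0.41 ± 0.38 for CNBP, 0.40 ± 0.27 for B52, 0.35 ± 0.30 for Ref1 and 0.05 ± 0.30 for pAbp (SE), with adjusted p between 0.805 and 0.980 (limma). Over all probe sets 21, or 0.15%, passed and none was of these genes, where limma gave 952 with an unadjusted p under 0.05. That count was 13 without LD 18, 4 without DD 6 and 5 without DD 18. Without the 4 arrays of low 5′ signal the differences of CNBP, Ref1, pAbp and B52 were -0.20, -0.36, -0.41 and -0.19, below 0, and that of Rm62 was 0.049. Those 4 arrays held the highest LD value and the 3 highest DD values of each of the 5 genes.

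Other genes with the same profile were named by their correlation with the mean centred profile of the 5 brightest probe sets over the 12 arrays, a measure that mainly reads the step between the 4 arrays and the other 8. The highest were Rsf1 (0.984), CG18766 (0.977), CG10874 (0.962), CG8617 (0.962) and CG9132 (0.955). Rsf1, an SR-related splicing factor, lay between 7.01 and 7.43 log2 in the 4 arrays and between 6.13 and 6.55 in the other 8. The lowest were CG4364 (-0.979), CG15771 (-0.977), CG1354 (-0.974), Kyat (-0.968) and mlt (-0.966). CG4364 was the mirror image, between 4.91 and 5.36 in the 4 arrays and between 6.23 and 6.78 in the other 8. Of 13958 other probe sets 80 had r of 0.9 or more and 106 had r of -0.9 or less.

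Further genes of mRNA metabolism were examined in 5 lists, with the brightest probe set of each gene. Beside them, the median light-dependent difference over all probe sets was 0.02 log2, 54.7% were above 0, and 2.14% passed the test. That background also holds dimmer probe sets and those of no named gene, so it is not matched to the lists in brightness. With only the probe sets of above-median brightness fitted, 279 passed, against 299 of all. The share that passed was thus above 2.14% among these brighter probe sets. The lists were drawn up with earlier results of these data known, so their counts are a description. SR proteins and splicing regulators had the highest median of the 5 lists: of 15 measured genes other than B52, 14 had a light-dependent difference above 0, their median was 0.57, and 3 passed. These were Rsf1 (1.25 ± 0.21 log2, SE, adjusted p = 0.0223), fl(2)d, a splicing regulator of the sex determination pathway (1.16 ± 0.19, adjusted p = 0.0217), and SF2, an SR protein (1.00 ± 0.23, adjusted p = 0.0465), all by limma. U2af38, the small subunit of the factor that binds the 3′ splice site, had 0.95 ± 0.24 and an adjusted p of 0.0670 (limma). For 5 of the 15 the 4 arrays of low 5′ signal were all above the other 8, which held for 3.16% of all probe sets.

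Among hnRNP and other RNA-binding proteins, 24 of 28 measured genes other than CNBP had a light-dependent difference above 0, with a median of 0.51 log2, and 3 passed. Among these were elav, a neuronal splicing regulator (1.34 ± 0.27, SE, adjusted p = 0.0370), and shep (0.98 ± 0.15, adjusted p = 0.0210), both by limma. Rbp9, a neuronal relative of elav, had 0.97 ± 0.28 and an adjusted p of 0.0892 (limma). In 6 of the 28 the 4 arrays were all above the other 8, again beside 3.16% of all probe sets. One of the 6 was elav, from 4.89 to 5.69 log2 in the 4 arrays against 4.11 to 4.55 in the other 8.

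The lists that hold Ref1, pAbp and Rm62 are given next, and differences between lists were not tested. Of 15 other genes of nuclear mRNA export and TREX, 9 were above 0 with a median of 0.05 log2, and none passed, nor had any an unadjusted p under 0.05 (limma). Hpr1, a THO complex subunit, had -0.27 ± 0.14 (SE), and Cbp80 of the cap-binding complex had -0.21 ± 0.16. The values of thoc6 and of the export factor Gle1 were 0.20 ± 0.15 and -0.14 ± 0.16.

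Of 19 other genes of the poly(A) tail, the cap and mRNA decay, 10 were above 0 with a median of 0.03 log2, and 2 passed. These were Pabp2, the nuclear poly(A)-binding protein (1.26 ± 0.29, SE, adjusted p = 0.0495), and orb2, a translational regulator that binds 3′ ends (0.55 ± 0.12, adjusted p = 0.0420), both by limma. Atx2, a partner of pAbp in translation, had 1.27 ± 0.46 (adjusted p = 0.170) and the translational repressor smg had -0.71 ± 0.40 (adjusted p = 0.375), both by limma. Of 18 other DEAD-box and related helicases, 8 were above 0 with a median of -0.11 log2, and none passed, where limma gave 5 with an unadjusted p under 0.05. The same unadjusted count was 5 of 19 in the poly(A) list, 7 of 15 in the SR list, 18 of 28 in the hnRNP list and 2633 of all 13966 probe sets. Among the helicases the differences were 0.62 ± 0.30 for bel and 0.12 ± 0.52 for me31B, both regulators of translation, -0.48 ± 0.16 for mle, the helicase of dosage compensation, and -0.45 ± 0.16 for abs. In 3 of these 18 genes the 4 arrays were all below the other 8, which held for 4.58% of all probe sets.

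All 8 genes of the lists that passed lost their call under both covariates. Among those named here the differences then ran from 0.59 (elav) to 1.37 (Pabp2) log2 with the mean 5′ minus 3′ signal. With that of actin and GAPDH they ran from 0.46 (shep) to 1.71 (Pabp2). Both upper values are those of the dim Pabp2 probe set. Each of them also lost it without LD 18, LD 22, DD 2, DD 6, DD 10 or DD 22, and leaving out LD 2, LD 14, DD 14 or DD 18 ended it for some. Only fl(2)d and shep kept it with hour of day as a block, and Pabp2 lost it also with the mean of its probe sets, at 0.66. None of the list genes passed for the daily rhythm or for the mean level in DD minus LD (limma), where the unadjusted p was under 0.05 for 2 and 4 of the SR proteins and splicing regulators, 1 and 0 of the hnRNP list, 1 and 0 of the export list, 1 and 1 of the poly(A) list and 0 and 2 of the helicases.

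**Figure D5:**
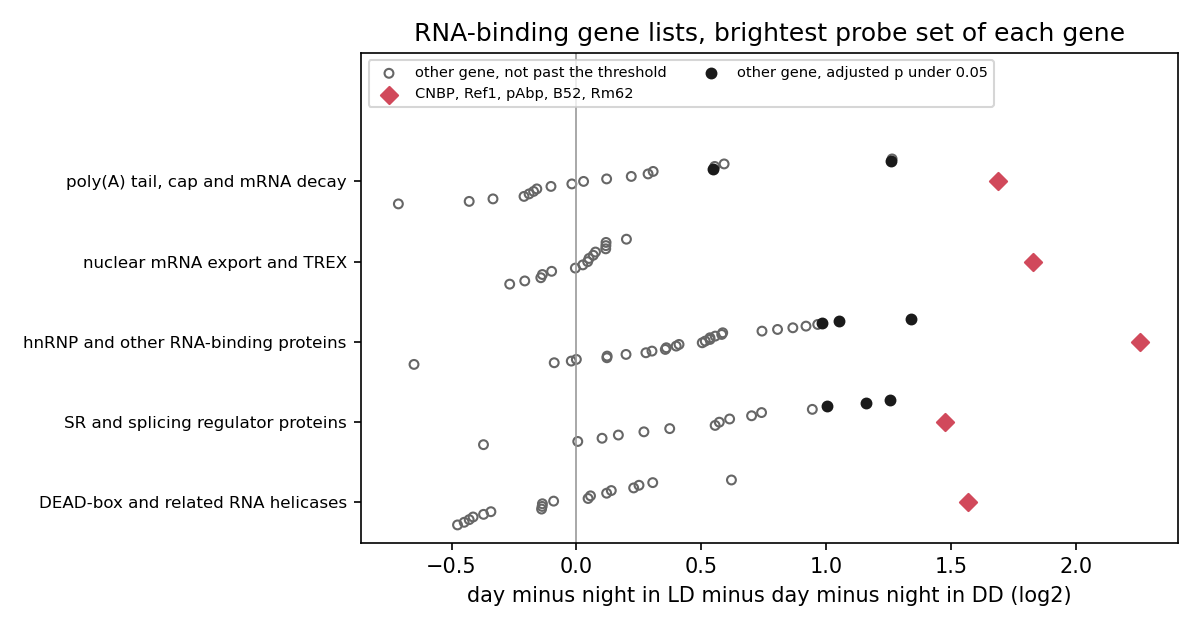
Light-dependent difference (log2, horizontal axis) of each gene of the 5 lists by its brightest probe set, 1 row per list, with filled circles for genes other than the 5 described here that passed an adjusted p of 0.05, open circles for those that did not, and red diamonds for CNBP, Ref1, pAbp, B52 and Rm62. The diamonds, between 1.48 and 2.26, lie to the right of every other gene in their rows, and the genes of the SR and hnRNP rows lie mostly above 0. The 5 genes were selected on values of these arrays, so their place in the rows is only a description.

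Some markers of cell types also differed between the 4 arrays and the other 8, and their part in the levels of the 5 genes was not tested. Over all probe sets 53.7% were higher on average in the 4 arrays. For 3.16% the 4 arrays were all above the other 8, and for 4.58% all below. The mean level of 3 measured photoreceptor markers of 5 listed (trp, Arr2 and chp) was 10.07 to 10.30 log2 in the 4 arrays and 10.39 to 10.81 in the other 8. None of the 3 was higher on average in the 4 arrays, but taken singly each overlapped between both sets of arrays. Of 4 neuronal markers 3 were measured (elav, brp and nSyb) and all were higher on average, with mean levels of 5.90 to 6.16 and 5.49 to 5.85. Most of this was elav, which is also a gene of the hnRNP list (0.88 log2 higher on average), while brp and nSyb overlapped between both sets of arrays and were 0.11 and 0.038 higher. The 4 flight muscle markers averaged 4.43 to 4.65 and 4.70 to 5.74, and 2 of them (TpnC4 and fln) were slightly higher on average in the 4 arrays. Of the other two, Act88F overlapped between both sets and up, troponin T, was 6.54 to 6.83 against 7.73 to 9.12. Fat body markers averaged 10.48 to 10.85 and 10.58 to 11.20, and those of ovary 6.55 to 6.69 and 6.46 to 6.97. Those of testis averaged 5.01 to 5.16 and 4.96 to 5.06, and those of midgut 4.82 to 4.86 and 4.81 to 5.996. In the same order 0, 1, 4 and 0 of 4 markers each were higher on average in the 4 arrays. Those of testis were higher by only 0.029 to 0.11 log2. The scale holds no true 0, so no marker could be called absent, and the photoreceptor markers were bright in every array.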

How the data were processed

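The deposited log2 values were made by the authors from single-colour Affymetrix arrays with RMA, per the submitters' processing notes. The sources used here do not give its version or say whether other arrays were normalized along with these 12. RMA draws all arrays to 1 distribution and sums the probes of each probe set, so a loss of signal towards 5′ ends would stay in the values. Nothing was rescaled or filtered. Of 13966 probe sets, after 44 controls were set aside, 12443 carried 1 symbol, 327 several and 1196 none, and 12394 were matched by gene ID. Genes stand by their brightest probe set.

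Fits used limma 3.58.1 in R 4.3.3 on all 12 arrays, with Benjamini-Hochberg adjustment over all probe sets and a threshold of 0.05. The daily rhythm was a cosine and sine of 24 h beside regime, which also gave DD minus LD, and the light-dependent difference came from 4 groups of 3 arrays, with 8 residual degrees of freedom each. The coding of the fits was checked on simulated data with independent noise, set below the scatter of the brightest probe sets of the 5 genes. That check therefore says nothing on the results for these arrays. Alternatives were the 5′ minus 3′ covariate, other normalizations and priors, brighter probe sets, left-out arrays, other time terms and probe sets averaged per gene. From each list up to 4 genes were named, those called or else with the largest differences, and the 5 highest and lowest by likeness. The values of 1 list gene that this rule names are not reported here. The 5 genes, the lists and the tests were chosen with earlier results of these data known.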

Additional observations from a re-analysis of the deposited data

Results flagged for a closer look

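At LD 2 CNBP 142507_s_at read 10.69 log2, far from the other LD arrays, of which the nearest was 9.57, and Rm62 read 8.95, with the nearest at 8.04. They were 2 of 16 groups whose gaps passed Dixon's critical value. By chance about 1 in 20 groups of replicates would, but these arrays are different hours and the genes were selected on their values, so the gaps are only a description. The difference between day and night hours in LD departed from that in DD for all 5 genes, by 2.26 log2 for CNBP, 1.83 for Ref1, 1.69 for pAbp, 1.57 for Rm62 and 1.48 for B52. The genes were selected on these values, which are therefore a description, and nothing is read from their calls. DD nights held 3 of the 4 arrays of low 5′ minus 3′ control signal, and the part of that signal was not tested beyond the covariate fits.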

How the results depend on the processing

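For the daily rhythm 3 probe sets passed, against 8 with the actin and GAPDH covariate, 1 without the 4 arrays of low 5′ signal, 1 with probe sets averaged per gene and 2 to 3 without single arrays. For DD minus LD 21 passed, against 2 with hour of day as a replicate block, 12 with averaged probe sets, 4 to 26 without single arrays, and 0 (989 unadjusted, limma) without the 4 arrays. For the light-dependent difference 299 passed, against 114 with hour as a block (CNBP and Ref1 of the 5 genes), 1 to 1349 without single arrays, and 0 with either covariate. Without the 4 arrays it could not be fitted, as no DD night was left. Replicate numbers followed accession order and pair nothing by themselves. DD minus LD turned to -0.052 for CNBP, -0.025 for Ref1 and -0.32 for pAbp with the 5′ minus 3′ covariate, to -0.17 for pAbp with actin and GAPDH, to -0.20 for CNBP, -0.36 for Ref1, -0.41 for pAbp and -0.19 for B52 without the 4 arrays, and to -0.011 for pAbp with averaged probe sets. For pAbp it ran from -0.12 to 0.27 without single arrays. Light-dependent differences turned to 0.022 (Cbp80), -0.063 (thoc6), 0.21 (Gle1) and 0.47 (smg) with the 5′ minus 3′ covariate, and to -0.21 (bel), 0.034 (mle), 0.17 (Hpr1), 0.23 (Cbp80), -0.17 (thoc6), 0.31 (Gle1), -0.53 (Atx2) and 0.73 (smg) with actin and GAPDH. That of me31B ran from -0.32 to 0.50 without single arrays. The cause was not tested. The other alternatives kept the direction of all 5 genes.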
